A study of Homo sapiens with 25 samples.

Results

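The genes of the integrated stress response centred on the transcription factor ATF4 were followed through RNA immunoprecipitation sequencing (RIP-seq) of the RNA-binding protein IGF2BP1. The members were ATF4, DDIT3, TRIB3, DDIT4, SESN2, PCK2, CHAC1, ASNS, SLC3A2 and SLC7A11, 10 of 63086 genes in the count files and 10 of 20044 protein-coding genes. They were chosen by measured values, because several of them were higher in arsenite-treated RQ cells than in arsenite-treated WT cells. That contrast, and any other that used the RQ arsenite libraries, is therefore given as a description with no test. The choice set no threshold, so no genes lay just inside or just outside it.

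The cells were HCT116, a human colorectal carcinoma line carrying Tet-OsTIR1-PURO, with IGF2BP2 and IGF2BP3 knocked out and mCherry-tagged IGF2BP1 expressed from an hPGK-driven lentivirus. The tagged protein was WT, S181E or Y396E, which put glutamic acid in place of a serine or a tyrosine in the disordered linkers to mimic phosphorylation, or RQ, in which arginines of the RGG motif in the first linker became glutamine. Each line was a sorted population within a narrow mCherry gate, not a single clone. Cells received PBS (control) or 500 µM sodium arsenite, an oxidative and proteotoxic stressor, for 2 h, and the protein was recovered on RFP-Trap beads. Every group had 3 libraries except RQ arsenite, which had 2 here. In addition, 1 control and 1 arsenite library came from nonengineered parental HCT116 cells, whose RNA bound the beads with no tagged protein, and these had no replicate. Dishes were plated and grown independently, and the p-values measure the spread between such dishes of 1 line.

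In the integrated stress response, kinases that sense different stresses phosphorylate the translation initiation factor eIF2, which slows protein synthesis in general. A few mRNAs with short upstream reading frames, among them those of ATF4 and DDIT3, are then translated better. ATF4 switches on genes for amino acid uptake and synthesis, tRNA charging and redox balance, and DDIT3 (CHOP) leads towards cell death when the stress persists. Arsenite is a classic activator through the heme-regulated kinase EIF2AK1. IGF2BP1 binds many mRNAs through its KH domains and affects their stability and translation. A RIP-seq level follows both the amount of an mRNA in the cells and the share of it bound, and the input RNA was not analysed here, so more RNA in the cells and more binding cannot be told apart; fewer cells and less RNA per cell cannot be told apart either.

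The transcripts differed in the feature by which the pathway is regulated. In the Ensembl canonical transcripts, ATF4 had 282 bases before the main start codon with 3 upstream ATG codons, 1 of which opened a reading frame that overlapped the main start. DDIT3 had the same arrangement in 177 bases, with 3 upstream ATG codons and 1 overlapping frame. TRIB3 and SLC7A11 had 2 upstream ATG codons each, SESN2 and SLC3A2 had 1 each, and in these 4 every upstream frame ended before the main start. DDIT4, PCK2, CHAC1 and ASNS had none. SLC7A11 was also apart in length, with 7859 bases after the stop codon.

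A composite element bound by ATF4 with a C/EBP partner, searched as TGATGNAA on both strands, was present in 1270 of 35116 RefSeq promoter windows (GRCh38.p14, 250 bases before to 50 after a start), or 3.62%. Counted by gene, since several genes have more than 1 window, it was present for 1217 of 27305 symbols, or 4.46%. Of the 9 members with a promoter in that table, 3 held it: CHAC1, ASNS and SLC3A2. SLC7A11 was the member with no entry. The surroundings of the matches at CHAC1 and ASNS are shown, since CHAC1 had the largest arsenite response of the members in the WT RIP and ASNS is the textbook amino acid response gene. Both stretches precede 1 RefSeq start of the gene, lie inside the gene's full GENCODE span, and lie outside its canonical transcript. Capitals mark the matching letters, 5′ to 3′ on the gene's strand. A match is a description of the letters and not evidence of a bound site.
CHAC1, chr15:40953251-40953280, + strand: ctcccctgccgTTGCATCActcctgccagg
ASNS, chr7:97872458-97872487, - strand: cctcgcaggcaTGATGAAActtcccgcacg
The CHAC1 match lay 209 bases before that start and read on the opposite strand, and the ASNS match lay 68 bases before its RefSeq start on the gene's own strand. The SLC3A2 match lay 37 bases after 1 of its starts.

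The mCherry libraries held 22246381 to 60273548 counts in genes, with a median of 34034910, and the parental libraries held 1238013 (control) and 18942497 (arsenite). Levels are given as CPM, each library's counts divided by its total after scaling by TMM factors. WT control 3 and RQ control 3 had the most tested genes at 0, 11.5% and 9.73%, against 0.797% to 7.97% in the other mCherry libraries. The colorectal epithelial markers EPCAM, KRT8, KRT18, KRT19, CDH1 and CDX2 were present, at 8.79 CPM or more in every mCherry library, whereas VIL1 and CEACAM5 reached at most 11 and 4 counts. Of the markers of other cell types, PTPRC and COL1A2 were at 0 throughout, CD3E, ALB and PECAM1 reached at most 1, 7 and 22 counts, and COL1A1 lay between 1.58 and 13.4 CPM. IGF2BP1, the bait, was at 0 in both parental libraries. Its own mRNA was at 60.9 to 70.1 CPM in WT control, 65.1 to 68.0 in S181E control, 71.4 to 109 in Y396E control and 103 to 123 in RQ control, and after arsenite at 37.2 to 42.4, 40.8 to 42.3, 52.0 to 52.3 and 79.6 to 81.7.

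Per kilobase of counted exon, ATF4 was the most abundant member in the WT control RIP, at 94.8 ± 4.91 CPM per kb (SD, n = 3). SLC3A2 (54.5 ± 3.18) and TRIB3 (9.36 ± 0.247) followed, and these 3 were separated by more than their spread. From SLC7A11 (5.99 ± 0.595) down through SESN2, DDIT4, PCK2, CHAC1 and DDIT3 to ASNS (0.389 ± 0.369), neighbours in the order overlapped. After arsenite the order in the WT RIP was different. SLC3A2 led at 87.4 ± 4.65 CPM per kb, ATF4 was at 44.0 ± 3.25, and DDIT4, CHAC1, SESN2 and TRIB3 lay together between 19.6 and 22.7. DDIT3 and PCK2 overlapped at 8.45 ± 2.34 and 7.92 ± 1.55, and SLC7A11 and ASNS were the lowest at 4.70 ± 0.325 and 1.04 ± 0.0611.

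**Figure D1:**
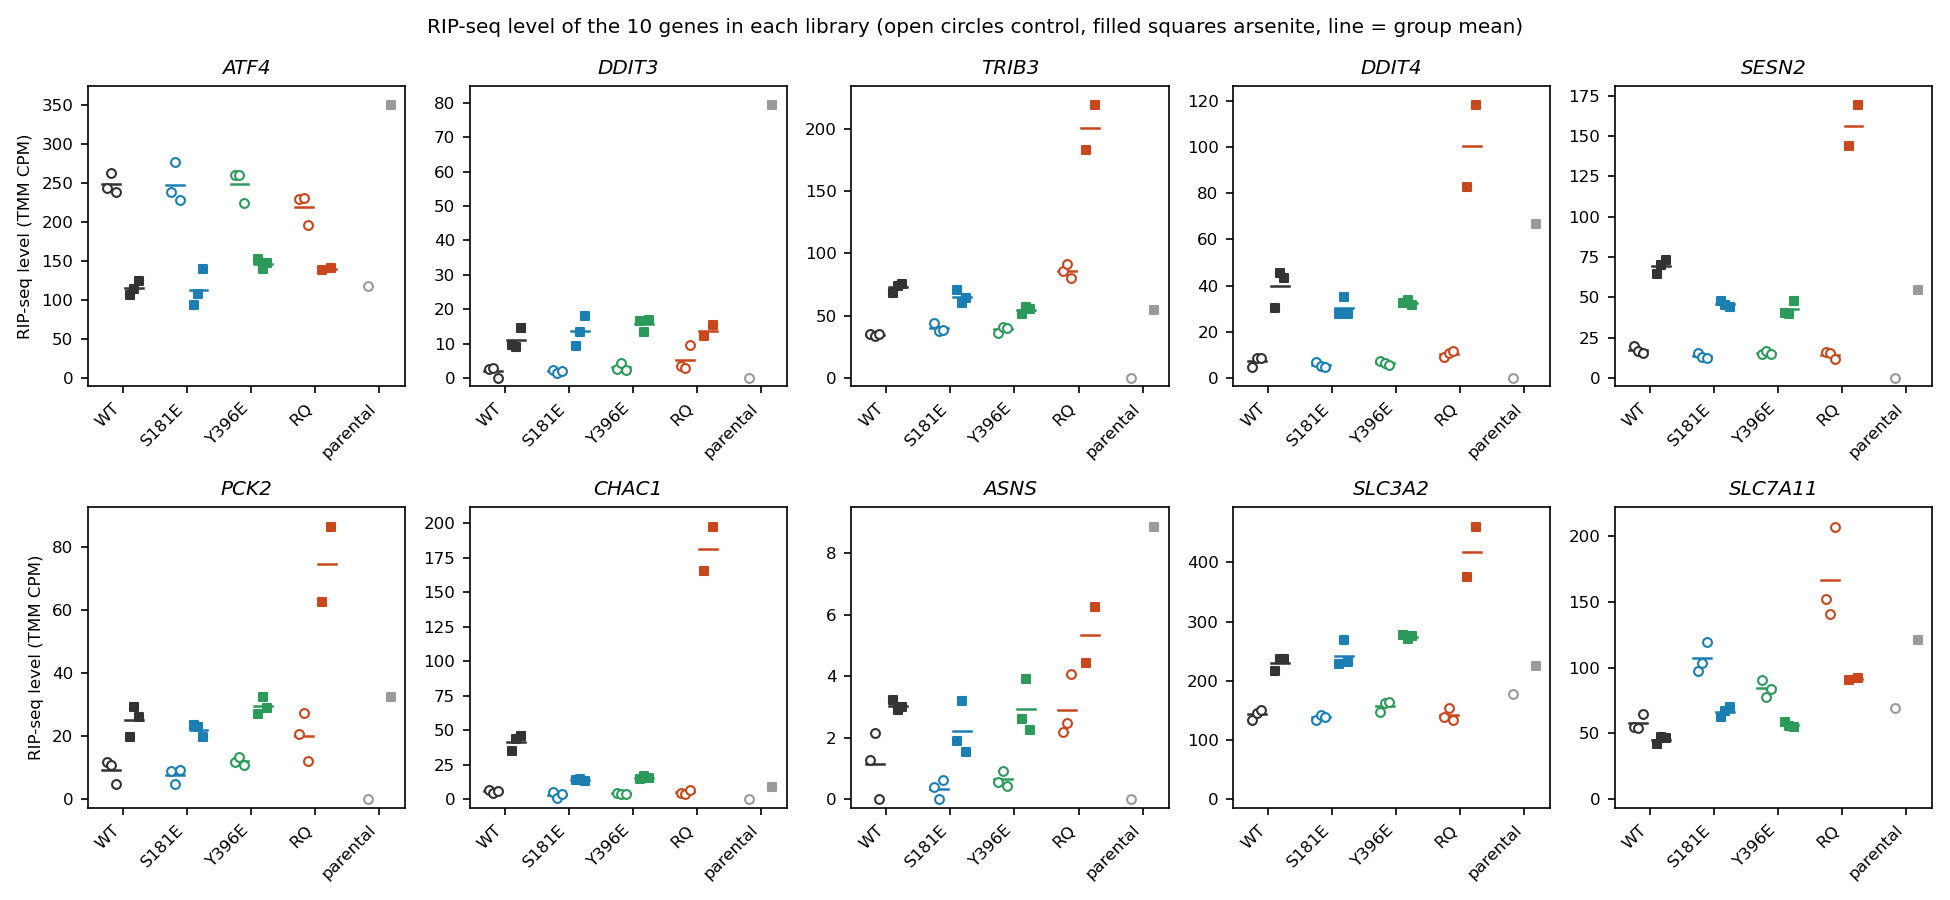
TMM-scaled CPM (linear axes, 1 panel a gene) of the 10 members in each library, with open circles for control, filled squares for arsenite and a line at the group mean. CHAC1, TRIB3, SESN2, DDIT4, PCK2 and SLC3A2 stand highest in the 2 RQ arsenite libraries, while ATF4 and SLC7A11 sit lower after arsenite than in control in every mCherry line.

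The first comparison asked how the RIP level of each member changed with arsenite. Of the 10 members, 7 passed a low-count filter, which asked for a level above 10 CPM in 11.5 or more (12 in practice) of the 23 libraries with a tagged protein. DDIT3, CHAC1 and ASNS did not pass it and were tested in a second fit with edgeR's own filter, which kept 13417 genes. Because 11 of the 23 mCherry libraries were arsenite libraries, a gene above 10 CPM after arsenite alone could not pass. DDIT4 passed through the arsenite libraries and 2 of the RQ control libraries. It thus entered the counts of the 7 members after arsenite, in each line, through the groups where it was high. Calls needed both an adjusted p below 0.05 (edgeR quasi-likelihood test, Benjamini-Hochberg) and a change above 20%. Among the 7 members in the WT RIP, 5 were called higher and 2 lower, while 35.4% of all 8734 tested genes were called higher and 31.8% lower. With all 10 members in the second fit, 7 were higher, 2 lower and 1 was not called, against 52.1% of all genes called in either direction, and the median log2 change of the 10 was 1.40, against 0.04 over all genes. The WT arsenite libraries also took part in choosing the members. The S181E and Y396E libraries did not, although all mCherry libraries shared 1 estimate of the spread.

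In S181E, 5 of the 7 members were called higher and 2 lower, beside 33.3% and 34.6% of all genes. In Y396E the members again split into 5 higher and 2 lower, beside 31.3% and 33.8% of all genes. In the second fit 8 members were higher and 2 lower in each of these lines, beside 50.4% of all genes called in S181E and 47.6% in Y396E, with median log2 changes of 1.59 and 1.38 over the 10. In all 3 lines the members called lower were ATF4 and SLC7A11.

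ATF4, the transcription factor that names the response, was at 243, 262 and 238 CPM in WT control and at 107, 114 and 124 CPM in WT arsenite. The arsenite libraries were all below the control libraries. The log2 change was -1.12 ± 0.117 (SE; adjusted p = 1.58e-08). In S181E the level went from 238, 276 and 228 to 93.0, 107 and 139 CPM, a log2 change of -1.15 (adjusted p = 9.16e-09). In Y396E it went from 261, 260 and 224 to 153, 139 and 147 CPM, a log2 change of -0.76 (adjusted p = 4.73e-06). The mRNA of the central regulator thus fell as a share of the RIP in each of these lines. In the unreplicated parental bead libraries its share was higher after arsenite, at 350 CPM, than in control, at 118 CPM.

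DDIT3, the pro-apoptotic bZIP factor CHOP, was at 4.45 CPM or less in the WT, S181E and Y396E control RIPs. In RQ control it was at 3.44, 2.97 and 9.46 CPM. DDIT3 was at 2.59, 3.03 and 0 CPM in WT control and at 9.50, 9.07 and 14.6 CPM in WT arsenite. The groups did not overlap, and the log2 change was 2.49 ± 0.535 (second fit, adjusted p = 0.000343). The corresponding log2 changes were 2.76 in S181E (adjusted p = 9.18e-05) and 2.35 in Y396E (adjusted p = 0.000378).

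TRIB3, a pseudokinase induced by ATF4 and DDIT3 that feeds back on ATF4, was at 35.6, 33.8 and 34.9 CPM in WT control and at 68.2, 74.1 and 75.8 CPM in WT arsenite. The groups were far apart and tight, and the log2 change was 1.05 ± 0.105 (adjusted p = 8.18e-09). In S181E it rose from 44.5, 37.4 and 38.5 to 70.8, 60.0 and 63.8 CPM, and in Y396E from 35.9, 40.8 and 40.4 to 51.4, 56.7 and 55.8 CPM. These were log2 changes of 0.67 (adjusted p = 5.52e-06) and 0.49 (adjusted p = 0.000245). The Y396E response was the smallest of the 3, and the test of that difference is given with the interactions.

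DDIT4 and SESN2 both act as stress-induced brakes on the growth kinase complex mTORC1. DDIT4 was at 4.61, 8.54 and 8.77 CPM in WT control and at 30.2, 45.2 and 43.5 CPM in WT arsenite, a 5.48-fold difference (log2 2.45 ± 0.227, adjusted p = 2.25e-09). SESN2 was at 19.7, 16.8 and 15.2 CPM in WT control and at 64.6, 70.1 and 73.0 CPM in WT arsenite, a 3.96-fold difference (log2 1.99 ± 0.136, adjusted p = 1.57e-11). For both genes the control and arsenite libraries were far apart. In S181E the log2 changes were 2.37 for DDIT4 (adjusted p = 3.46e-09) and 1.71 for SESN2 (adjusted p = 1.75e-10). In Y396E they were 2.34 for DDIT4 (adjusted p = 3.83e-09) and 1.47 for SESN2 (adjusted p = 1.92e-09).

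CHAC1, an enzyme that degrades glutathione, had the largest response of the members in the WT RIP. It was at 7.14, 4.31 and 6.05 CPM in WT control and at 35.3, 43.6 and 46.3 CPM in WT arsenite, 6.99-fold higher (log2 2.81 ± 0.265, second fit, adjusted p = 2.35e-09). In S181E it rose from 5.22, 1.16 and 3.60 to 14.2, 14.7 and 13.5 CPM, a log2 change of 2.03 (adjusted p = 6.59e-07). In Y396E it rose from 4.68, 4.28 and 4.27 to 15.0, 16.8 and 15.6 CPM, a log2 change of 1.84 (adjusted p = 1.75e-06). The 6 S181E and Y396E arsenite libraries were all below the 3 WT arsenite libraries.

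PCK2, the mitochondrial enzyme that makes phosphoenolpyruvate, and ASNS, which makes asparagine, are metabolic targets of ATF4. PCK2 was at 11.8, 11.0 and 5.00 CPM in WT control and at 19.8, 29.4 and 26.2 CPM in WT arsenite, a log2 change of 1.41 ± 0.285 (adjusted p = 0.000145). The log2 change was 1.48 in S181E (adjusted p = 8.22e-05) and 1.30 in Y396E (adjusted p = 0.000262). ASNS was the least abundant member, at 1.27, 2.16 and 0 CPM in WT control and at 3.25, 2.89 and 3.02 CPM in WT arsenite. Its WT log2 change of 1.39 ± 0.705 was not called (95% CI -0.07 to 2.84, adjusted p = 0.103), and was called without WT control 2 (2.08, adjusted p = 0.0306). It was called higher in S181E (2.58 ± 0.776, adjusted p = 0.00700) and in Y396E (2.17 ± 0.723, adjusted p = 0.0148). The Y396E call was lost without Y396E control 1 (2.10, adjusted p = 0.0540), Y396E control 3 (1.98, adjusted p = 0.0602) or Y396E arsenite 2 (1.90, adjusted p = 0.0578).

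SLC3A2 and SLC7A11 encode the heavy and light chains of the cystine-glutamate exchanger, which supplies cysteine for glutathione. Their mRNAs moved in opposite directions. SLC3A2 was at 135, 145 and 151 CPM in WT control and at 216, 237 and 238 CPM in WT arsenite, a log2 change of 0.67 ± 0.0928 (adjusted p = 1.11e-06). SLC7A11 was at 54.8, 54.2 and 64.4 CPM in WT control and at 41.8, 47.6 and 46.7 CPM in WT arsenite, a log2 change of -0.36 ± 0.123 (adjusted p = 0.0122). The SLC7A11 groups did not overlap but were close, and its call was lost without WT arsenite 1 (-0.31, adjusted p = 0.0584) or WT control 3 (-0.28, adjusted p = 0.0654). In S181E the log2 changes were 0.79 for SLC3A2 (adjusted p = 1.02e-07) and -0.72 for SLC7A11 (adjusted p = 1.61e-05). In Y396E they were 0.80 for SLC3A2 (adjusted p = 8.80e-08) and -0.57 for SLC7A11 (adjusted p = 0.000234).

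**Figure D2:**
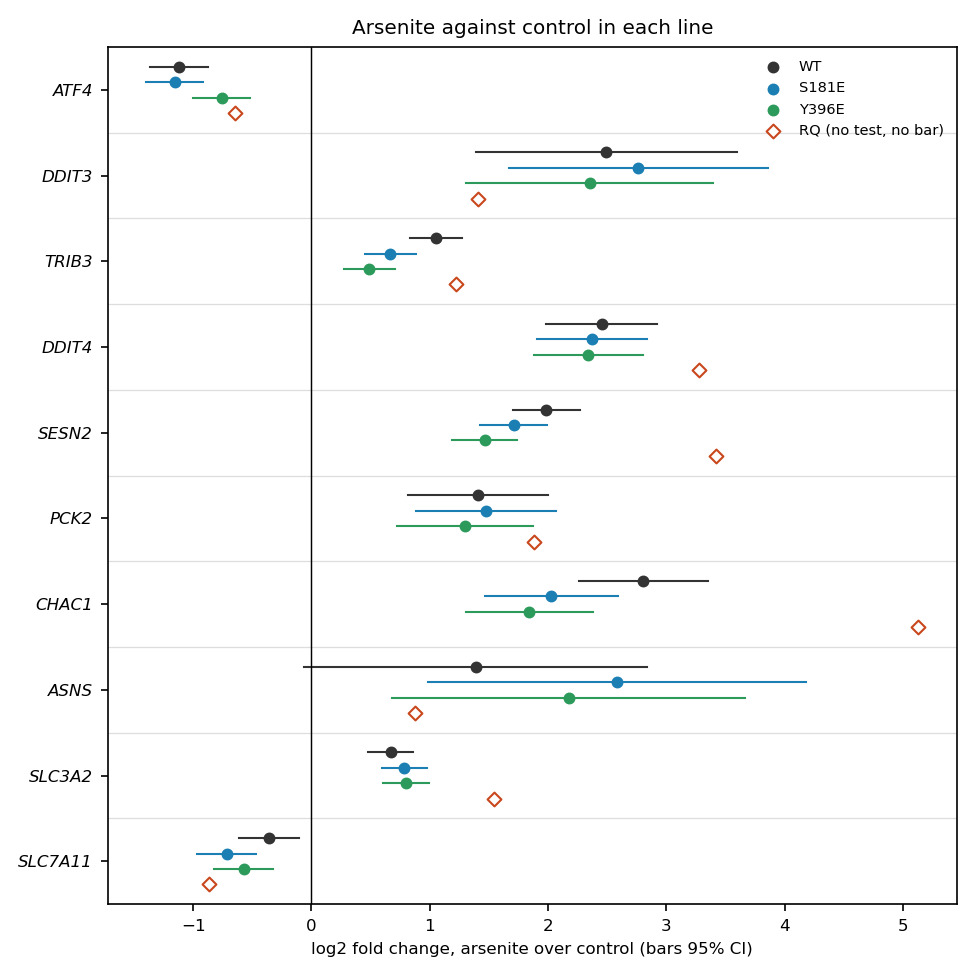
Log2 fold change of arsenite over control for the 10 members, with dots for WT, S181E and Y396E (bars 95% CI) and open diamonds for RQ, which was not tested. ATF4 and SLC7A11 lie left of 0 in every line, the WT interval of ASNS crosses 0, and the RQ value of CHAC1, 5.13, lies far to the right of the other lines.

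The next comparison asked whether the RIP level of the members differed between the mutant lines and WT without stress. Each mutation was carried by 1 line, so mutation and line cannot be told apart. S181E and Y396E differed from WT at 1 member each of the 7, and at both it was SLC7A11; the share of all genes called was 20.8% for S181E and 28.9% for Y396E. In the second fit 15.0% of all genes were called for S181E and 20.3% for Y396E, and DDIT3, CHAC1 and ASNS were not among them. SLC7A11 was at 97.6, 104 and 120 CPM in S181E control and at 90.8, 77.9 and 83.9 CPM in Y396E control, all above the 3 WT control libraries. The S181E level was 1.87-fold the WT level (log2 0.90 ± 0.122, adjusted p = 1.64e-05) and the Y396E level 1.47-fold (log2 0.56 ± 0.122, adjusted p = 0.00142). The other members lay between log2 -1.66 (ASNS, adjusted p = 0.163) and 0.22 (TRIB3, adjusted p = 0.149) in S181E. Without WT control 3, ASNS was called (-2.20, adjusted p = 0.0214) and so was SESN2 (-0.41, adjusted p = 0.0456), which was at -0.33 with all libraries (adjusted p = 0.0929). CHAC1, at -0.79 in S181E (adjusted p = 0.0647), was called without S181E control 1 (-1.26, adjusted p = 0.00766) or WT control 2 (-0.96, adjusted p = 0.0333).

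RQ differed from WT in control cells at 3 of the 7 members, TRIB3, PCK2 and SLC7A11, all higher, where 6.34% of all tested genes were called in either direction. The arsenite libraries that chose the members were not compared here but entered the shared estimate of the spread. The RQ and WT lines were also those of the choosing contrast, so a difference between them in both treatments would have entered the choice. This comparison is thus not independent of the choice, and nothing is read from the number of members called. In a fit of the RQ and WT control libraries alone, 7 of all genes were called in place of 554, among them TRIB3 and SLC7A11. TRIB3 was at 85.6, 91.5 and 80.1 CPM in RQ control, above every WT control library, a 2.47-fold difference (log2 1.30 ± 0.106, adjusted p = 5.34e-08). SLC7A11 was at 152, 140 and 207 CPM in RQ control, also above every WT library, a 2.88-fold difference (log2 1.53 ± 0.124, adjusted p = 5.34e-08). PCK2 was at 20.7, 27.5 and 12.2 CPM in RQ control against 11.8, 11.0 and 5.00 CPM in WT control, a 2.16-fold difference (log2 1.11 ± 0.285, adjusted p = 0.0226). The lowest RQ value of PCK2 was barely above the highest WT value. Its call was lost without RQ control 1 (1.09, adjusted p = 0.0547), RQ control 2 (0.83, adjusted p = 0.106) or WT control 3 (0.83, adjusted p = 0.0782), and in a fit of the compared groups alone (1.11, adjusted p = 0.521).

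The other members were not called between RQ and WT in control cells. DDIT4 had a log2 difference of 0.53 (adjusted p = 0.169), SESN2 -0.25 (adjusted p = 0.292), ATF4 -0.18 (adjusted p = 0.374) and SLC3A2 -0.01 (adjusted p = 0.970). In the second fit, where 4.15% of all genes were called, DDIT3 was at 1.41 (adjusted p = 0.139), ASNS at 1.32 (adjusted p = 0.298) and CHAC1 at -0.19 (95% CI -0.76 to 0.37, adjusted p = 0.745). CHAC1, the member with the largest RQ over WT ratio after arsenite, was at 4.93, 4.26 and 6.51 CPM in RQ control, inside or near the WT control range of 4.31 to 7.14 CPM. The mRNA of the bait itself was higher in RQ control (103 to 123 CPM) than in WT control (60.9 to 70.1 CPM), and its part in these results was not tested.

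The members were then compared between lines after arsenite, in fits that shared the WT arsenite libraries with the choosing contrast. In S181E, 2 of the 7 members were called, beside 7.53% of all genes, and in the second fit CHAC1 was called as well, beside 4.65% of all genes. SESN2 was at 47.4, 45.1 and 44.1 CPM in S181E arsenite, below all 3 WT arsenite libraries and 1.52-fold lower (log2 -0.61 ± 0.128, adjusted p = 0.00337). CHAC1 was 2.96-fold lower than in WT (log2 -1.56 ± 0.243, adjusted p = 0.000149). SLC7A11 was at 62.2, 66.9 and 70.0 CPM, above all WT arsenite libraries and 1.46-fold higher (log2 0.55 ± 0.122, adjusted p = 0.00544). ATF4 differed by -0.03 (95% CI -0.27 to 0.21, adjusted p = 0.935), and TRIB3 and DDIT4 by -0.17 (adjusted p = 0.404) and -0.40 (adjusted p = 0.290).

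In Y396E, 5 of the 7 members were called against WT after arsenite, beside 32.5% of all genes, with a second-fit share of 20.2%. SESN2 was at 40.2, 39.8 and 47.9 CPM, 1.59-fold lower than in WT (log2 -0.67 ± 0.128, adjusted p = 0.000361). CHAC1 was 2.59-fold lower (log2 -1.37 ± 0.239, second fit, adjusted p = 0.000176). TRIB3 was 1.30-fold lower (log2 -0.38 ± 0.102, adjusted p = 0.00662). The cystine exchanger and ATF4 lay on the other side, with ATF4 1.30-fold higher (log2 0.38 ± 0.116, adjusted p = 0.0150), SLC7A11 1.27-fold higher (0.35 ± 0.121, adjusted p = 0.0309) and SLC3A2 1.22-fold higher (0.28 ± 0.0919, adjusted p = 0.0209). These 3 calls were weak. ATF4 lost its call without WT arsenite 1 (0.33, adjusted p = 0.0747) or Y396E arsenite 1 (0.34, adjusted p = 0.0623), and SLC3A2 without WT arsenite 1 (0.24, adjusted p = 0.0967), Y396E arsenite 1 (0.27, adjusted p = 0.0624) or Y396E arsenite 3 (0.28, adjusted p = 0.0531). SLC7A11 lost its call without any 1 of WT arsenite 1 and 3 and the 3 Y396E arsenite libraries, with adjusted p from 0.0533 to 0.127. All 3 also lost it when scaling relied on genes that the RIP did not enrich over the parental arsenite library, where the log2 differences were 0.19 for ATF4, 0.16 for SLC7A11 and 0.09 for SLC3A2, and TRIB3 lost its call when libraries were scaled by total counts (-0.16, adjusted p = 0.224). The mRNA of the bait was at 52.0 to 52.3 CPM in Y396E arsenite and 37.2 to 42.4 CPM in WT arsenite, and its part in these results was not tested.

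The phosphomimetic lines were also set against each other after arsenite, where no library of the choosing contrast was compared. Of the 7 members only ATF4 was called, beside 11.8% of all genes. It was 1.33-fold higher in Y396E than in S181E (log2 0.41 ± 0.116, adjusted p = 0.0240), although the lowest Y396E and the highest S181E library, both 139 CPM when rounded, overlapped. That call was lost without S181E arsenite 1 (0.29, adjusted p = 0.183) or S181E arsenite 2 (0.36, adjusted p = 0.0868), and without any Y396E arsenite library (0.37 to 0.44, adjusted p from 0.0557 to 0.0936). CHAC1 differed by 0.19 (95% CI -0.30 to 0.69, second fit, adjusted p = 0.735) and SESN2 by -0.06 (95% CI -0.33 to 0.20, adjusted p = 0.762).

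**Figure D3:**
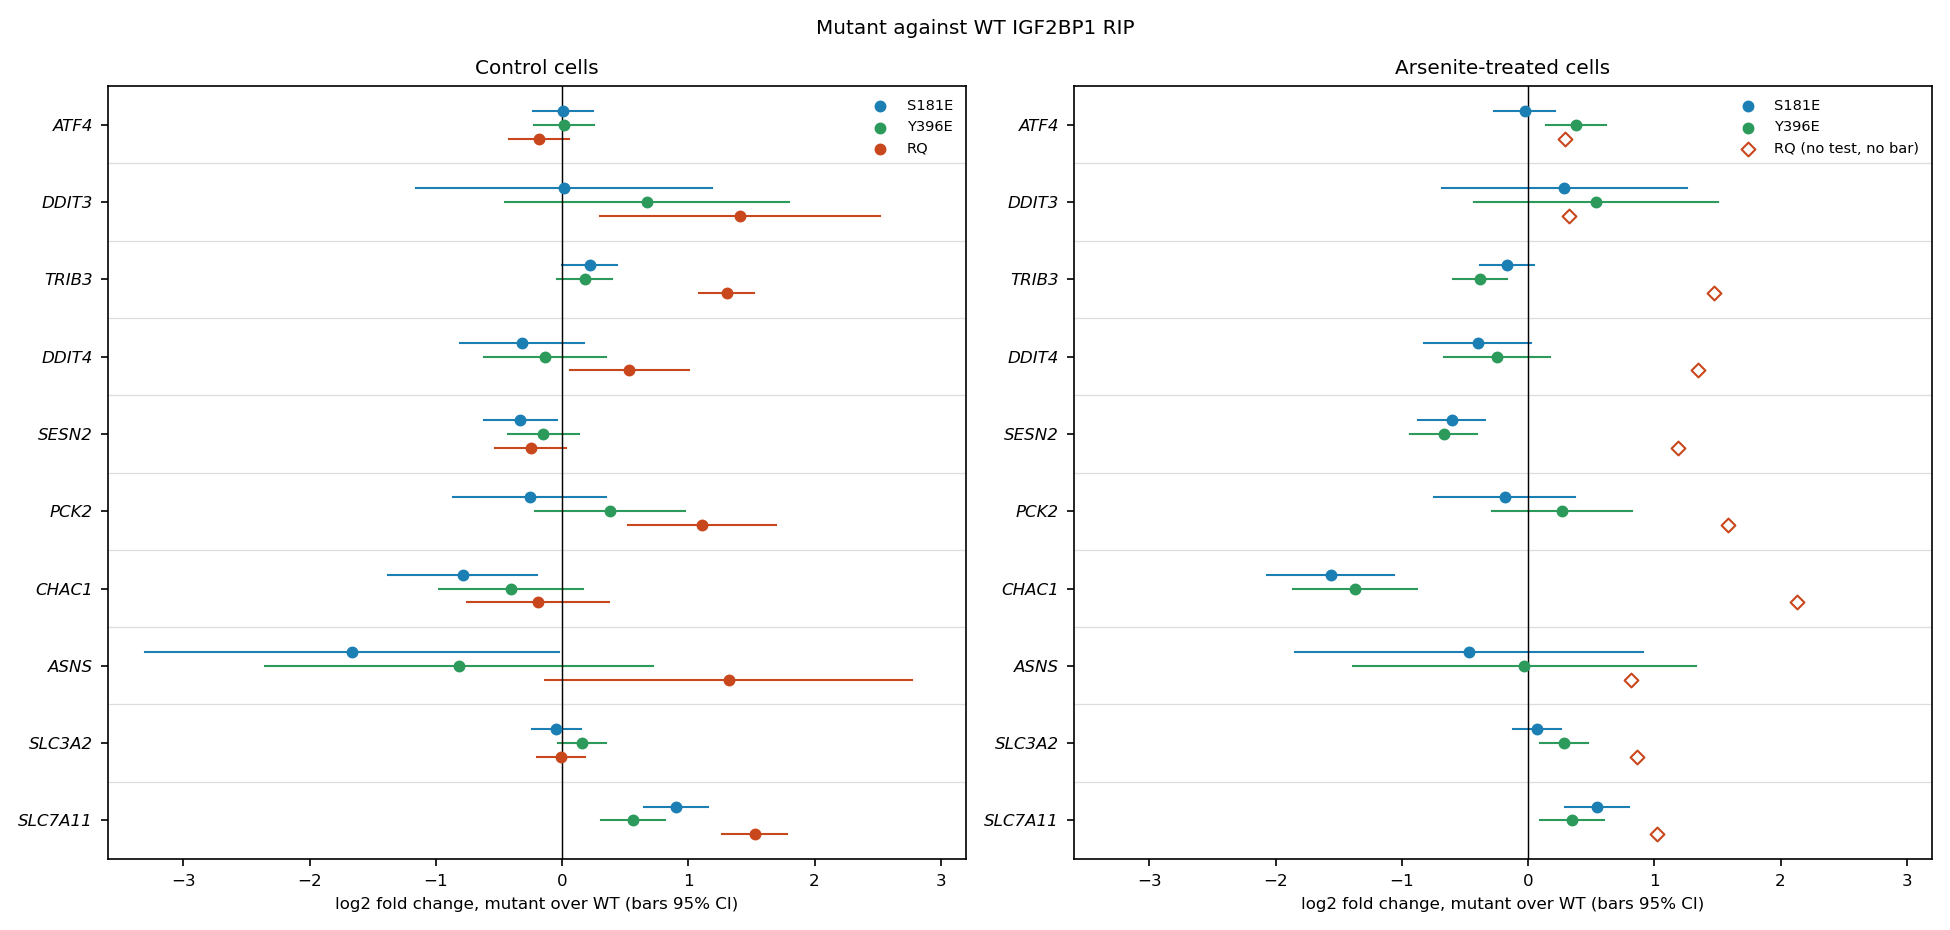
Log2 fold change of each mutant over WT in control cells (left) and arsenite-treated cells (right), with bars for 95% CI and open diamonds for the RQ arsenite values, which were not tested. SLC7A11 is right of 0 for all 3 mutants in both panels, TRIB3 and PCK2 are right of 0 for RQ in both panels, and CHAC1 and SESN2 in arsenite lie left of 0 for S181E and Y396E.

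Whether the arsenite response itself differed from that of WT was tested as an interaction. For S181E 0 of the 7 members were called by edgeR, beside 0.389% of all genes, and 0 by DESeq2. At an unadjusted p below 0.05 there was 1 of the 7, beside 1128 of all 8734 genes, and nothing is read from that count. It was TRIB3, with an interaction of -0.38 (edgeR adjusted p = 0.266), and CHAC1 had -0.78 in the second fit (adjusted p = 0.425). For Y396E, 1 of the 7 was called, beside 2.85% of all genes. That member was TRIB3, whose log2 response was 0.56 smaller than in WT (-0.56 ± 0.147, 95% CI -0.87 to -0.26, adjusted p = 0.0370). The call was lost in the second fit (adjusted p = 0.0571) and on leaving out any 1 of 9 of the 12 libraries compared, with adjusted p from 0.0573 to 0.109. SESN2 (-0.52, adjusted p = 0.134), CHAC1 (-0.97, second fit, adjusted p = 0.199) and ATF4 (0.36, adjusted p = 0.236) were not called. The TRIB3 call was thus a narrow one.

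In RQ arsenite the members were chosen for their levels, which are given as a description. In 9 of the 10 members both RQ libraries lay above all 3 WT arsenite libraries, the exception being DDIT3, and 17.3% of the 13417 genes of the second fit had that arrangement; nothing is read from the difference, since the rule used this contrast. CHAC1 was at 166 and 198 CPM, 4.38-fold the WT arsenite level. PCK2 was at 62.8 and 86.6 CPM (2.99-fold), TRIB3 at 183 and 219 CPM (2.78-fold), DDIT4 at 82.6 and 118 CPM (2.55-fold) and SESN2 at 144 and 169 CPM (2.27-fold). The transporter subunits were also higher, SLC7A11 at 90.9 and 91.7 CPM (2.03-fold) and SLC3A2 at 375 and 461 CPM (1.82-fold). ATF4 itself was at 139 and 141 CPM (1.23-fold) and ASNS at 4.44 and 6.25 CPM (1.76-fold). DDIT3 was at 12.1 and 15.5 CPM, the lower value inside and the higher above the WT arsenite range of 9.07 to 14.6 CPM. The bait's mRNA was at 79.6 to 81.7 CPM in RQ arsenite and 37.2 to 42.4 CPM in WT arsenite, and its part in these levels was not tested.

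Against their own control, the RQ arsenite libraries held 35.0 times as much CHAC1, 10.7 times as much SESN2 and 9.66 times as much DDIT4. The log2 changes were 5.13, 3.42 and 3.27, beside 2.81, 1.99 and 2.45 in WT. TRIB3, which was already high in RQ control, changed by 1.22 and PCK2 by 1.88, beside 1.05 and 1.41 in WT. SLC3A2 changed by 1.54, and SLC7A11 and ATF4 again went down, by -0.87 and -0.65. Per kilobase, SLC3A2 led in RQ arsenite at 158 CPM per kb, followed by CHAC1 at 88.6, which was eighth of the 10 in WT control. DDIT4 (57.5), TRIB3 (54.1), ATF4 (53.6) and SESN2 (45.2) came next.

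The parental libraries showed the share of each mRNA in the RNA that came down without tagged protein. CPM are shares of a library, so the ratios do not compare amounts of RNA recovered. These ratios rest on 1 parental library a condition and have no test. In arsenite the median ratio of all genes to the parental library was 1.09 in WT, 1.10 in S181E, 1.08 in Y396E and 1.12 in RQ. A ratio of at least 4 was reached by 12.6% of genes in WT, 12.0% in S181E, 10.6% in Y396E and 12.3% in RQ, and among the members by CHAC1 in WT and RQ and by no member in S181E or Y396E. In WT the lowest library was at 3.96, and with scaling by total counts no member reached 4. CHAC1 was at 8.92 CPM in the parental arsenite library (95% exact Poisson interval 7.74 to 10.2, counting error only). Its mean ratio was 4.68 in WT, 1.59 in S181E, 1.77 in Y396E and 20.4 in RQ, the last at percentile 98.0 of all genes in that line. TRIB3 stood at 1.33, 1.18, 0.996 and 3.66 in the same order, and SESN2 at 1.28, 0.839, 0.785 and 2.88. PCK2 (0.774 in WT, 2.30 in RQ) and DDIT4 (0.595 in WT, 1.51 in RQ) were below 1 in WT and above it in RQ.

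ATF4 and DDIT3 held a smaller share of the RIP library of every line than of the parental library after arsenite. The ATF4 ratio was 0.329 in WT, 0.324 in S181E, 0.418 in Y396E and 0.401 in RQ, and the DDIT3 ratio 0.139, 0.171, 0.198 and 0.174, which placed DDIT3 at percentile 2.9 or lower of all genes. ASNS (0.250 to 0.603) and SLC7A11 (0.375 to 0.755) were also below 1 throughout. The parental arsenite library held 79.3 CPM of DDIT3, more than the highest mCherry library at 18.1 CPM. For these 4 members the share of the library after arsenite was thus smaller in every line than in the parental beads. Their arsenite responses are changes of that share, and the amounts recovered cannot be compared.

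In control cells the parental library was shallow, with 58.2% of the second-fit genes at 0 and 7 of the 10 members at 0. Of the 8734 genes of the main fit, 3572 were also at 0 there. A 0 in that library thus may not bound a gene's level, and the ratios below are not lower limits. With 3 counts as the floor (2.02 CPM in that library), the WT control mean was 17.2-fold the floor for TRIB3 and 8.51-fold for SESN2. It was 4.57-fold for PCK2, 3.61-fold for DDIT4 and 2.88-fold for CHAC1. The RQ control mean was 42.4-fold the floor for TRIB3, 9.94-fold for PCK2 and 7.15-fold for SESN2. The abundant members were close to the background. ATF4 was 2.10-fold and SLC3A2 0.807-fold the parental level in WT, and SLC7A11 was 0.832-fold in WT, 1.54-fold in S181E, 1.21-fold in Y396E and 2.39-fold in RQ. DDIT3 and ASNS were under the floor in WT, so no fold is given.

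**Figure D4:**
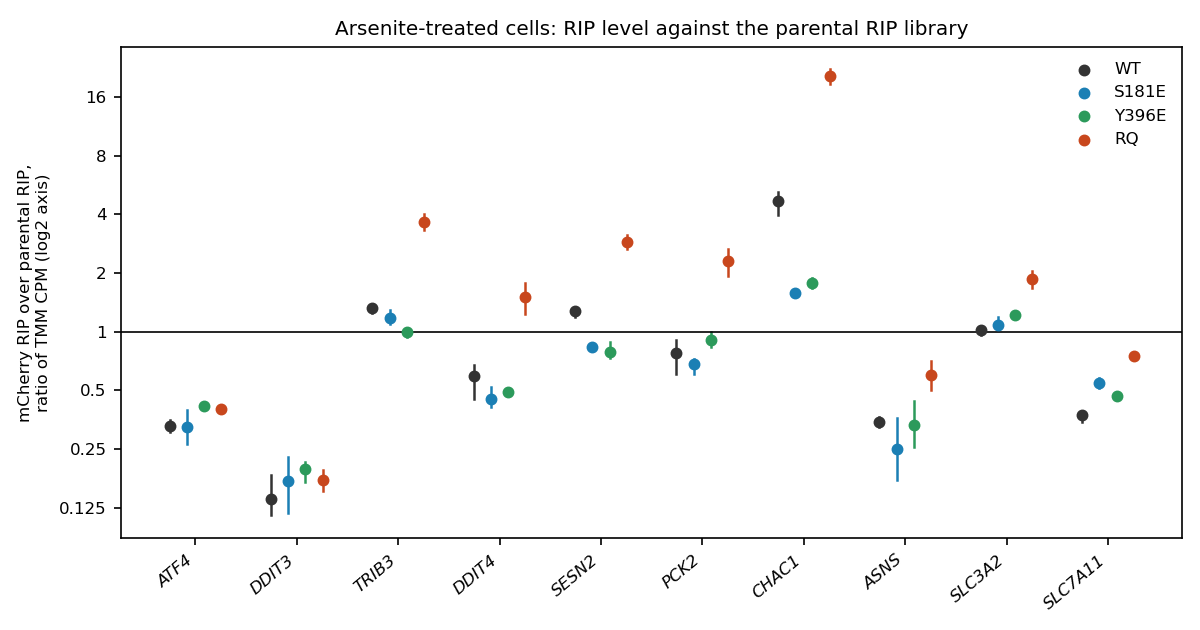
Ratio of the arsenite RIP level in each line to the single parental arsenite library (log2 axis), with dots for group means and lines from the lowest to the highest library. CHAC1 in RQ is at 20.4, whereas ATF4 and DDIT3 lie below 1 in all 4 lines.

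The wider pathway was read from 7 lists of 80 genes, of which 68 passed the filter. In the WT RIP 37 of the 68 were called higher after arsenite and 12 lower, beside 35.4% and 31.8% of all genes. The 12 aminoacyl-tRNA synthetases, which charge tRNAs with amino acids and are ATF4 targets, were all called higher in WT, S181E and Y396E, with median log2 changes of 1.49, 1.61 and 1.42. GARS1 rose from 112 ± 12.8 to 732 ± 9.99 CPM (log2 2.69), EPRS1 from 65.5 ± 9.49 to 297 ± 28.7 (2.17) and AARS1 from 34.2 ± 6.68 to 134 ± 8.50 (1.95; SD, n = 3 each).

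Of 9 tested amino acid synthesis and one-carbon enzymes, 7 were higher and 1 was lower in WT. GOT1 (2.15), PSAT1 (1.69) and PHGDH (1.65), of aspartate and serine synthesis, rose on the log2 scale, and the phosphoserine phosphatase PSPH fell (-0.83). Of 6 amino acid transporters, SLC1A5 (1.11) and SLC38A2 (0.55) rose while SLC38A1 (-1.01) and SLC7A1 (-0.96) fell. Among 4 bZIP partners of ATF4, ATF3 rose (2.36), from 35.7 ± 7.83 to 186 ± 12.0 CPM, CEBPB rose (0.57) and CEBPG fell (-0.70).

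The next 3 lists, like the transporters and the bZIP partners, lay nearer to the shares of all genes, 35.4% higher and 31.8% lower in WT. Nothing is read from the counts of any of these lists. Of 13 tested sensors and feedback factors of the response, 5 were higher and 3 lower. EIF2B5 (1.22) and EIF2B1 (1.02), subunits of the exchange factor that phosphorylated eIF2 inhibits, and PPP1R15A (0.77), the inducible subunit of the eIF2 phosphatase, rose. The constitutive phosphatase subunit PPP1R15B (-0.95), the arsenite-activated kinase EIF2AK1 (-0.54) and the mitochondrial protease OMA1 (-0.47) fell. Of 13 other reported ATF4 targets, 4 were higher, led by HERPUD1 (2.81), LONP1 (1.09) and NDRG1 (0.69), and 4 were lower, led by ATG12 (-0.94), EIF4EBP1 (-0.58) and VEGFA (-0.30). The number lower in that list was 1 when libraries were scaled by total counts. Of 11 genes of the ATF6 and XBP1 arm, a parallel branch of the unfolded protein response, 5 were higher, led by HYOU1 (1.72), PDIA4 (1.36) and HSP90B1 (1.10), and DNAJC3 was lower (-0.36).

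In control cells, 21 of the 68 list genes were called higher in RQ than in WT and 0 lower, or 30.9%, beside 6.34% of all genes called in either direction. In a fit of the RQ and WT control libraries alone, where 7 of all genes were called, 2 of the 68 were higher and 0 lower, both synthesis enzymes. Under the 4 other scalings of the full model also 0 were called lower. In the full model the called genes were 5 of 9 synthesis enzymes, 4 of 6 transporters, 4 of 12 tRNA synthetases, 4 of 13 sensors and feedback factors, 3 of 13 other targets and 1 of 4 bZIP partners. PSAT1 (log2 1.40) and GOT1 (1.36) had the largest differences among the genes already named, followed by CEBPG (0.85), SLC1A5 (0.83) and PHGDH (0.73). No gene of the 11 in the ATF6 and XBP1 arm was called. The other control comparisons had calls in both directions, with 13 higher and 6 lower in S181E (27.9%) and 21 higher and 8 lower in Y396E (42.6%), beside 20.8% and 28.9% of all genes.

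After arsenite, 4 list genes were higher and 3 lower in S181E than in WT, or 10.3% beside 7.53% of all genes, and 17 were higher and 13 lower in Y396E, or 44.1% beside 32.5%. Between Y396E and S181E 2 were higher and 6 lower, or 11.8%, the same share as over all genes. The interaction was called for 1 list gene in S181E (1.47% beside 0.389% of all genes) and 3 in Y396E (4.41% beside 2.85%), all with the lower log2 change in the mutant. The lists were put together with results of these data known, and their counts are a description.

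The members did not share 1 profile over the 8 mCherry groups. Over group means of log2 CPM, the Pearson correlation was 0.979 between DDIT4 and SESN2 and 0.982 between SESN2 and CHAC1, while ATF4 ran against DDIT3 (-0.915) and SESN2 (-0.829). SLC7A11 correlated with the other members between -0.403 and 0.509. These values describe 8 points that share the split into control and arsenite. RQ arsenite, whose levels chose the members, is 1 of these points, so nothing is read from how alike the members are. Among all genes of the second fit, the profile of ATF4 was most like those of DCXR (0.991), LAMTOR1 (0.989), TBC1D13 (0.989), RNF24 (0.988) and MRGBP (0.987). The profile of DDIT3 was most like those of SIL1 (0.993), ARMC5 (0.987), SRCIN1 (0.985), SRPX (0.985) and OSBPL2 (0.985).

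On the hg38 assembly the members lie on separate chromosomes. ATF4 (ENSG00000128272.18) spans chr22:39519695-39522683 on the + strand, DDIT3 (ENSG00000175197.13) chr12:57516588-57521737 on the - strand and TRIB3 (ENSG00000101255.13) chr20:362835-397559 on the + strand. DDIT4 (ENSG00000168209.6) spans chr10:72273924-72276036, SESN2 (ENSG00000130766.5) chr1:28259518-28282491, PCK2 (ENSG00000100889.12) chr14:24094053-24104130, CHAC1 (ENSG00000128965.13) chr15:40952962-40956512 and SLC3A2 (ENSG00000168003.19) chr11:62856004-62888880, all on the + strand. ASNS (ENSG00000070669.17) spans chr7:97851677-97872542 and SLC7A11 (ENSG00000151012.13) chr4:138164097-138242349, both on the - strand. Counts were made over the exons of each gene on the matching strand, so that antisense transcripts were not added to them.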

How the data were processed

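RIP-seq libraries of 23 mCherry-IGF2BP1 and 2 parental HCT116 samples were analysed. The deposited values were raw read counts per gene, and the authors made them, per the file headers, their methods and the submitters' processing notes, with STAR 2.7.11b on hg38 and featureCounts (Subread 2.0.6, reverse-strand reads over exons of GENCODE 46, multi-mapping reads not counted), after bcl2fastq 2.20.0.422 and a quality check in FastQC 0.11.9. RNA was ribosome-depleted and libraries were stranded. No molecular identifiers were stated, so intervals on counts cover counting error only. Low mappability in near-identical copies could lower a gene's count.

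Symbols came from GENCODE 44 by Ensembl ID (62541 of 63086 genes; the 545 others held 0.0135% to 0.0298% of counts). Identical libraries were looked for, with 0 pairs found. Protein-coding genes above 10 CPM in at least 11.5 mCherry libraries (8734 genes) were fitted with edgeR 4.0.16 (R 4.3.3, limma 3.58.1): TMM factors, 1 model of 8 groups, quasi-likelihood tests, Benjamini-Hochberg adjustment. DDIT3, CHAC1 and ASNS were tested among the 13417 genes kept by filterByExpr. DESeq2 1.42.0, other scalings, filters, models, a replicate block and leaving out each library were alternatives. Scripts were tested on simulated counts. Printed CPM used TMM factors over 25 libraries, and RefSeq promoters (GRCh38.p14) gave the motif counts. Replicate numbers were taken to pair the samples only in S181E against WT after arsenite. There same-numbered libraries deviated together for all 3 numbers (r = 0.286, 0.298 and 0.395). In other comparisons replicates 2 and 3 also did so, as in RQ against WT in control (0.347 and 0.313), but replicate 1 less (0.091). The pairing comes from this correlation and not from the labels. The members and the lists were chosen with earlier results of these data known. Named were all members, IGF2BP1, up to 3 called genes at each end of each list in WT arsenite against control, and the 5 genes most like ATF4 and DDIT3. Python 3.11.15, pandas 2.3.3, numpy 2.4.6 and matplotlib 3.10.9 were used.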

Additional observations from a re-analysis of the deposited data

Results flagged for a closer look

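The arsenite response of TRIB3 passed a test of the interaction between Y396E and WT, with a log2 difference of -0.5624 (SE 0.147, edgeR adjusted p = 0.0370). The call was narrow: it was lost with DESeq2 size factors (adjusted p = 0.0621), with filterByExpr (0.0571), with no filter (0.114), with glmTreat (0.241) and on leaving out any 1 of 9 of the 12 libraries (0.0573 to 0.109). Arsenite raised TRIB3 by 1.05 on the log2 scale in WT and by 0.49 in Y396E. The WT control libraries were at 35.6, 33.8 and 34.9 CPM and the WT arsenite libraries at 68.2, 74.1 and 75.8 CPM, while the Y396E libraries were at 35.9, 40.8 and 40.4 CPM in control and at 51.4, 56.7 and 55.8 CPM in arsenite. All 3 Y396E arsenite libraries were below all 3 WT arsenite libraries. The WT arsenite libraries also took part in the contrast that chose the genes. With S181E in place of Y396E the difference in response was -0.38 (adjusted p = 0.266).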

How the results depend on the processing

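Counts of called members varied with the settings in 10 of the 11 tested comparisons, the exception being the S181E interaction, which had 0 throughout. The cause was not tested except where fewer libraries or another threshold is the setting itself. Of 2056 alternatives for single members, 1982 kept their side of the threshold, 55 lost and 19 gained a call, and 0 reversed. For arsenite against control the count of 7 ranged from 5 to 9 in WT (6 to 7 on leaving out 1 library) and from 6 to 10 in S181E and in Y396E. The main fit tested 7 members and filterByExpr 10, so counts above 7 are out of 10 members. The number of all genes called ranged from 4984 to 6992 in WT, 5020 to 6766 in S181E and 4761 to 6387 in Y396E. For RQ against WT in control the count of 3 ranged from 2 to 4 (2 to 3 on leaving out 1 library), and PCK2 lost its call with glmTreat and with only the groups compared. For S181E against WT in control the count of 1 became 2 with total counts only, with no filter and without the 2 control libraries with the most genes at 0 (an alternative chosen after seeing the data), and was 1 to 2 on leaving out 1 library. For Y396E against WT in control it became 3 with total counts only. For S181E against WT after arsenite the count of 2 became 0 with glmTreat, which tests for a change above 20%. For Y396E against WT after arsenite the count of 5 became 2 with scaling on genes the RIP did not enrich over the parental library and 1 with glmTreat, and was 2 to 5 on leaving out 1 library. For Y396E against S181E after arsenite the count of 1 became 0 with glmTreat and 2 with only the groups compared, and was 0 to 1 on leaving out 1 library. For the Y396E interaction the count of 1 became 0 with DESeq2 size factors, no filter, filterByExpr and glmTreat, and was 0 to 1 on leaving out 1 library. SLC7A11 in WT also lost its arsenite call with all biotypes (-0.21, adjusted p = 0.119). With the replicate number as a block (replicate block) the counts of called members were 7, 7, 7, 1, 1, 3, 2, 5, 1, 0 and 1, as without it, also in the paired comparison of S181E with WT after arsenite, and for single members the block added calls for ASNS in WT arsenite against control (1.76, adjusted p = 0.0489) and for CHAC1 in S181E against WT control (-0.87, adjusted p = 0.00507).

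Over all genes the number called moved by more than 1.5 times in some settings. It was 1818 for S181E against WT in control (401 to 2811 over the settings), 2523 for Y396E (1173 to 4153) and 554 for RQ (7 to 1033, the lowest with only the groups compared). After arsenite it was 658 for S181E (220 to 1882) and 2838 for Y396E (1284 to 4429) against WT, 1031 for Y396E against S181E (176 to 3238), and 34 (0 to 213) and 249 (64 to 746) for the interactions. Scaling by total counts moved the median log2 difference of all genes by 0.16 to 0.27 in the S181E and Y396E comparisons with WT, scaling on genes not enriched over the parental library moved the Y396E comparisons by -0.12 to -0.19, and all biotypes moved the arsenite responses of WT, S181E and RQ by 0.11 to 0.15. The share of calls that were higher went from 40.4% to 75.3% and 13.1% with the first and second of these for Y396E against WT after arsenite, from 29.2% to 75.4% with the first for S181E after arsenite, and from 55.4% to 82.1% and 38.3% for RQ in control. With scaling on total counts or a ratio of at least 8, no member was 4-fold or 8-fold over the parental arsenite library in WT. The parental control library, with 1238013 counts, is the limit on ratios for the low members in control cells.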
